A study of Mus musculus with 90 samples.

Results

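The MII arrest and exit regulators are 10 genes whose products hold the ovulated mouse oocyte in metaphase of the second meiotic division or release it from there at fertilization. They were chosen by name, as Mos, Fbxo43, Ccnb1, Ccnb2, Cdc20, Wee2, Plk1, Mastl, Arpp19 and Ensa, and every entry of the count table with one of these symbols was taken. All 10 were found among the 24422 genes of the table, each in 1 entry, and all 10 were among the 16511 genes tested, which had at least 1 CPM (a count scaled by library size) in at least 5 libraries. Mos is of added interest here because it lies on chromosome 4 close to Plag1, the gene that was deleted in the mice.

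In an ovulated oocyte, the kinase Mos feeds a MAP kinase cascade that supports the arrest, Fbxo43 (Emi2) blocks the anaphase-promoting complex (APC/C), and cyclin B bound to Cdk1 maintains M phase. The kinase Mastl (Greatwall) activates Arpp19 and Ensa, a pair of small inhibitors of the phosphatase PP2A, which would otherwise remove the phosphates that Cdk1 sets. At fertilization a calcium signal and Plk1 mark Fbxo43 for destruction, the APC/C with its activator Cdc20 degrades cyclin B, and the oocyte kinase Wee2 holds Cdk1 in check; much of this acts on proteins and on translation, which counts of transcripts do not measure.

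Each library holds 1 MII oocyte, 2-cell (2c) embryo or 8-cell (8c) embryo. Transcripts were read at their 5′ end and counted by molecule, with 92 spike-in RNAs added, in 2 library pools that are called plates A and B here. The design asks what the loss of maternal Plag1 changes at each of the 3 stages. WT oocytes came from WT females and KO oocytes from Plag1 knockout females of the CD-1 strain, aged 1 to 3 months, superovulated with pregnant mare serum and hCG, and they were not cultured. The embryos called KO came from Plag1 knockout females mated with WT males (matPlag1KO), so they were heterozygous and carried a WT paternal allele, and WT embryos came from WT females mated with WT males. Oocytes were picked 21 to 23 h after hCG, 2c embryos at 45 to 47 hpf and 8c embryos at 71 to 73 hpf after culture in KSOM medium. The 90 libraries came from 2 to 4 donor females per group, who are not named in the labels, so p-values measure the spread between libraries and not between females.

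After 12 libraries with a median under 1 CPM were left out, 78 remained. These were 16 of 16 WT and 14 of 16 KO oocytes, 11 of 14 WT and 11 of 14 KO 2c embryos, and 15 of 15 WT and 11 of 15 KO 8c embryos. Gene counts per library ran from 222357 to 2502421 in WT oocytes (median 395023) and from 438233 to 1772844 in KO oocytes (median 649899). The 2c embryos were the shallowest, with medians of 148473 counts in WT and 163626 in KO and a lowest library of 92475, so 1 count was worth several CPM there. At 8c the medians were 564009 counts in WT and 393914 in KO. Gene counts per spike-in count, a measure of RNA content, had medians of 42.6 (WT) and 64.4 (KO) in oocytes, 15.5 (WT) and 18.3 (KO) at 2c, and 50.8 (WT) and 38.2 (KO) at 8c. The order of the 2 oocyte medians rests on 11 libraries that stood apart, as described below, and turns without them. The WT oocytes among these had gene counts from 222357 to 591662, against 323566 to 2502421 in the other WT oocytes.

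Plag1 itself was read first, as a check of the labels. It lay between 2.32 and 143 CPM in the 16 WT oocytes (median 24.3), and it was at 0 in 11 of 14 KO oocytes, with 3.28 CPM in the highest. The groups overlapped by that margin alone, and the log2 fold change of KO against WT was −5.64 (SE 0.65, adjusted p = 1.48e-10). Embryos labelled KO carry a WT paternal allele, so Plag1 does not check their label. At 2c Plag1 was at 0 in 10 of 11 WT embryos, with 1 count in all, and between 0 and 90.2 CPM in the 11 labelled KO (median 35.7).

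Markers of each stage were read next. All 7 oocyte markers (Zp1, Zp2, Zp3, Gdf9, Bmp15, Oosp1, Nlrp5) had counts in each group, with Oosp1 the most abundant in oocytes. Of the 7 markers of 2c embryos, Zscan4c, Zscan4d, Zfp352 and Tdpoz4 had counts at 2c, and Zscan4f, Tcstv1 and Tcstv3 were at 0. Summed, they reached a median of 203 CPM in WT and 498 CPM in KO 2c embryos, with Zfp352 the most abundant, against 2.39 and 3.48 CPM at 8c. The 6 markers of 8c embryos (Cdx2, Nanog, Krt8, Krt18, Dppa1, Tfap2c) summed to medians of 460.3 CPM in WT and 206 CPM in KO 8c embryos, with Tfap2c the most abundant. Of these 6, Dppa1 ran the other way, from a mean of 23.1 CPM in WT oocytes to 1.15 CPM in WT 8c embryos. Between the genotypes at 8c, 3 of the 6 (Cdx2, Krt8, Krt18) were lower in KO in edgeR, and 1 with spike-in totals, and 1 oocyte marker (Zp1) was lower, and 0 with spike-in totals. At 2c, 1 of 7 oocyte markers (Bmp15) and 1 of 4 tested 2c markers (Tdpoz4) were higher in KO, and with spike-in totals 1 of each as well. The 10 markers of cumulus and granulosa cells, which surround the oocyte and were stripped off, summed to medians of 21.0 CPM in WT and 19.5 CPM in KO oocytes, with Cyp19a1 the most abundant. Ptx3, Tnfaip6, Ptgs2 and Amh, 4 of those 10, were at 0 in every oocyte.

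A part of the oocyte libraries stood apart, so some results on oocytes are also given without them, while levels and RNA content hold all 30 unless stated. Over 5346 genes with a mean of at least 20 CPM in oocytes, the regulators left out, 11 of 30 libraries formed a branch of their own in average linkage clustering on 1 − Pearson's r, and the same 11 did so with complete linkage. The branch held all 8 WT oocytes of plate B, 1 WT oocyte of plate A and 2 KO oocytes of plate B. The median r was 0.745 among these 11, 0.750 among the other 19 and 0.644 between the sets. Their 7 oocyte markers summed to between 4399 and 6240.4 CPM in the 9 WT and between 4317 and 6200.1 CPM in the 2 KO libraries, against 12532 to 23390.5 CPM in the other 7 WT and 11077 to 19075 CPM in the other 12 KO libraries. In plate B every WT oocyte belonged to the branch, with 2 of 7 KO oocytes, so no WT oocyte outside it is there to compare with, and leaving the branch out leaves WT oocytes of plate A alone. What sets these libraries apart was not tested.

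**Figure D1:**
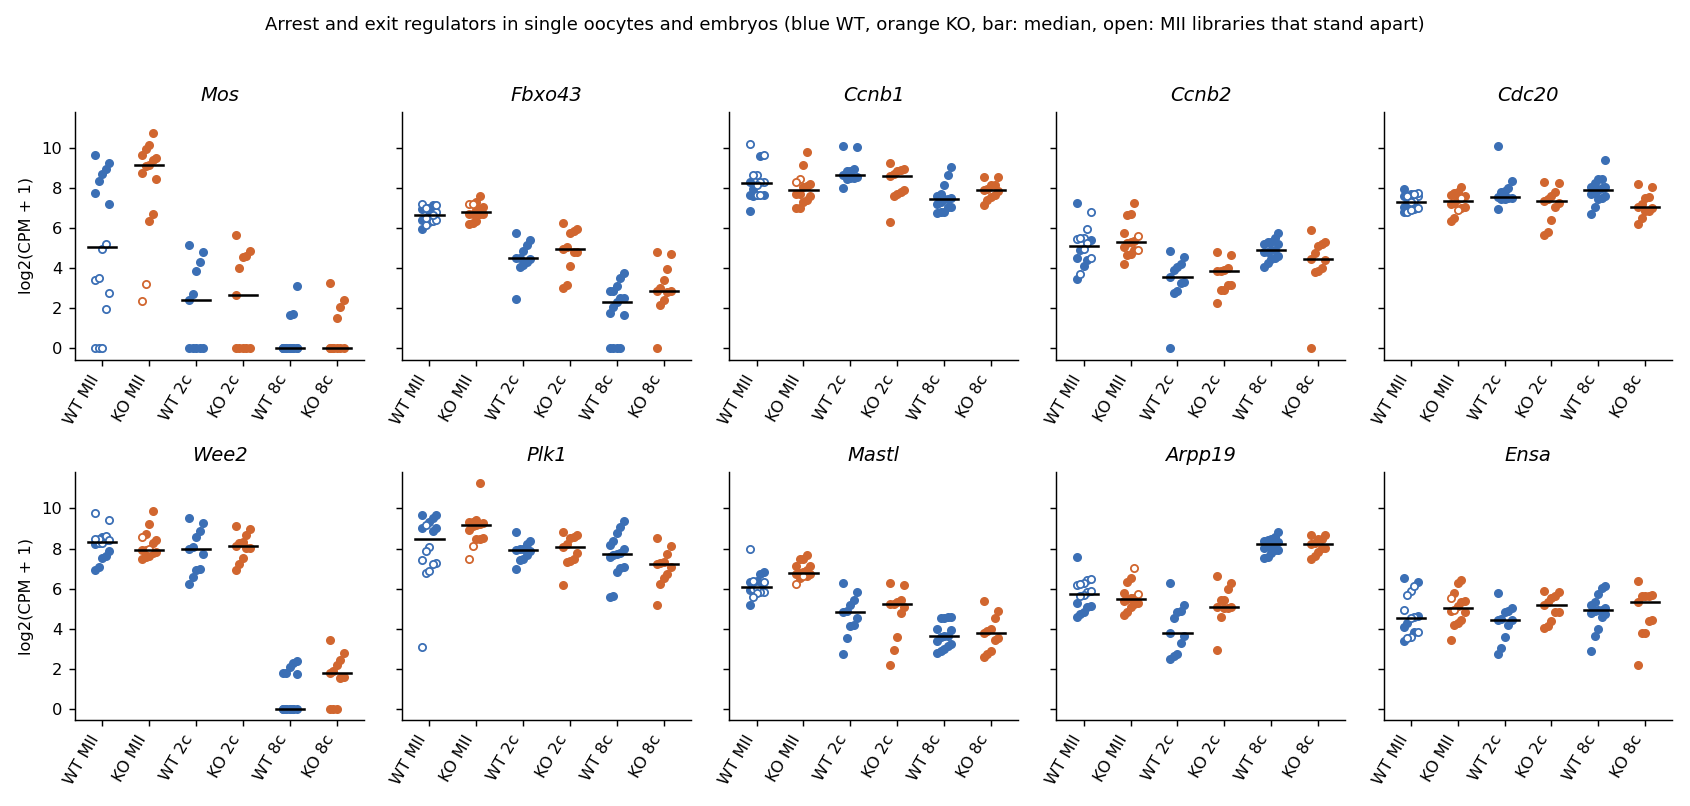
Level of each of the 10 regulators in each kept library, as log2(CPM + 1), in the 6 groups of genotype and stage, with the median as a bar and the 11 oocyte libraries that stood apart as open circles. Mos was at 0 in 12 of 15 WT and 7 of 11 KO 8c embryos, Wee2 was at 4.20 CPM or less in all WT 8c embryos, and Arpp19 was at 186 CPM or more in all WT 8c embryos.

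From the MII oocyte to the 2c embryo the transcripts of the arrest regulators fell. Mos fell most, to a few counts per embryo, and Fbxo43, Ccnb2 and Mastl fell as well in both genotypes. Arpp19 in WT and Plk1 in KO were also called lower on both scales given below. Ccnb1, Wee2 and, in WT, Cdc20 changed by about as much as or less than the median gene. Stages were compared relative to spike-in RNA, so a change in the RNA content of the whole cell is part of each log2 fold change. On that scale the median over all tested genes was −1.46 in WT and −1.42 in KO, and with TMM factors, which remove such a shift, it was −0.03 and 0.14. Relative to spike-in RNA the WT median was −1.98 without the 11 libraries, −1.99 within plate A and −0.52 within plate B. In KO it was −1.50, −1.45 and −1.33. Values given below for these subsets are to be read against these medians.

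In edgeR, 9 of 10 regulators were lower at 2c than at MII in WT, where 51.3% of all tested genes were lower, and 0 were higher, where 14.1% of tested genes were. All 10 had an unadjusted p under 0.05 in the lower direction, where 68.2% of all tested genes had one in either direction. DESeq2 called all 10 lower, where it called 7531 of 16511 tested genes lower. In KO all 10 were lower in edgeR, against 50.3% of tested genes, and 0 were higher, against 13.5%. DESeq2 gave the same 10 and 0, where it called 7595 of 16511 tested genes lower and 1329 higher. The median log2 fold change of the 10 was −2.69 in WT and −2.53 in KO. Without the 11 libraries that stood apart, chosen after the data were seen, all 10 were lower in both genotypes. Of the 16511 tested genes, 9409 were then lower in WT and 8701 in KO. With TMM factors 5 of 10 were still lower in each genotype, where 3814 of 16511 tested genes were lower in WT and 3192 in KO. They were Mos, Fbxo43, Ccnb2 and Mastl in both, Arpp19 in WT and Plk1 in KO. With TMM factors Cdc20 was called higher in WT, though a single WT 2c embryo held 248 of the 616 Cdc20 counts of its group. Ccnb1 turned to a value above 0 in both genotypes with these factors.

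Mos, the kinase at the head of the MAP kinase arm, lay between 0 and 803 CPM in the 16 WT oocytes (median 33.3) and between 4.25 and 1709 CPM in the 14 KO oocytes (median 564). At 2c it was at 0 in 5 of 11 embryos of each genotype, with 34.5 CPM in the highest WT and 48.9 CPM in the highest KO embryo. Per 10000 spike-in counts its mean was 141 ± 191 (SD, n = 16) in WT oocytes and 1.88 ± 2.39 (SD, n = 11) in WT 2c embryos. The WT oocytes split, since the 9 of them in the branch lay between 0 and 36.6 CPM, within or close to the range of the 2c embryos, and the other 7 between 148 and 803 CPM. The log2 fold change from MII to 2c was −6.13 in WT (SE 0.93, adjusted p = 2.17e-08) and −7.05 in KO (SE 0.95, adjusted p = 7.33e-10). Without the 11 libraries it was −7.29 in WT (SE 0.64). Within plate B alone, where all WT oocytes were in the branch, the Mos fall in WT was −1.40 (SE 0.90) and was not called (adjusted p = 0.204).

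Fbxo43, the inhibitor of the APC/C, was even between oocytes, from 60.6 to 147 CPM in WT (median 99.97) and from 73.1 to 193 CPM in KO (median 112). At 2c it lay between 4.56 and 53.8 CPM in WT and between 7.06 and 77.0 CPM in KO, so that the WT ranges did not overlap and the KO ranges nearly parted. Its log2 fold change was −3.71 in WT (SE 0.47, adjusted p = 1.35e-10) and −3.63 in KO (SE 0.47, adjusted p = 2.14e-10). Unlike Mos, its CPM covered the same range in the oocytes of the branch, from 70.9 to 147 in WT, as in the others.

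Of the cyclins B, the activating subunits of Cdk1, Ccnb2 fell by more than the median gene in both genotypes, and Ccnb1 by less than it in WT and by about as much in KO. Mean Ccnb2 was 43.8 ± 37.7 CPM (SD, n = 16) among WT oocytes against 12.6 ± 8.08 CPM (SD, n = 11) among WT 2c embryos, and its log2 fold change was −3.35 in WT (SE 0.51) and −3.88 in KO (SE 0.52). Mean Ccnb1 was 387 ± 289 CPM (SD, n = 16) among WT oocytes against 519 ± 285 CPM (SD, n = 11) among WT 2c embryos. Relative to spike-in RNA Ccnb1 was lower by −0.89 in WT (SE 0.33, adjusted p = 0.0148) and −1.56 in KO (adjusted p = 7.38e-05), but with TMM factors its change was 0.43 in WT and 0.21 in KO, neither of them called. Ccnb1 was also not called in WT within plate A (−1.24, adjusted p = 0.0756) or plate B (−0.44, adjusted p = 0.377), nor in KO within plate A (−1.15, adjusted p = 0.0811). Cyclin B1 has near-identical processed copies elsewhere in the genome, so its counts are uncertain to the extent that reads were shared with them.

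Cdc20, the activator of the APC/C, was at 167 ± 42.2 CPM (SD, n = 16) in WT and 165 ± 53.3 CPM (SD, n = 14) in KO oocytes. At 2c its WT embryos lay between 126 and 1112 CPM (median 190) and its KO embryos between 48.9 and 321 CPM (median 162). Its direction in WT depended on the scale, as did that of Ccnb1, with −0.76 relative to spike-in RNA (SE 0.37, adjusted p = 0.0645) and 0.80 with TMM factors (adjusted p = 0.00973). The WT 2c embryo at 1112 CPM held 248 of the 616 Cdc20 counts of its group, and neither value was tested without it. Without the 11 libraries the spike-in value for Cdc20 in WT was −1.37 (SE 0.42) and was called (adjusted p = 0.00295). In KO it was −1.89 relative to spike-in RNA (SE 0.39, adjusted p = 2.48e-05) and 0.03 with TMM factors.

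Wee2, the oocyte kinase that restrains Cdk1, changed by about as much as the median gene from oocyte to 2c embryo when all libraries were used. It lay between 121 and 873 CPM in WT oocytes (median 326) and between 73.2 and 730 CPM in WT 2c embryos (median 250). Its mean was 441 CPM in the 9 WT oocytes of the branch and 221 CPM in the other 7, with 303 CPM at 2c between them. Relative to spike-in RNA it was lower by −1.51 in WT (SE 0.36, adjusted p = 2.22e-04) and −1.80 in KO (adjusted p = 2.42e-05), near the median of all genes, and it was not called with TMM factors (−0.18 and −0.15), nor in WT within plate A (−1.24). Plk1, the kinase that primes Fbxo43 for destruction, was at 391 ± 270 CPM (SD, n = 16) among WT oocytes against 248 ± 89.3 CPM (SD, n = 11) among WT 2c embryos. For Plk1 the log2 fold change was −2.46 in WT (SE 0.50, adjusted p = 1.71e-05) and −3.11 in KO (SE 0.53, adjusted p = 3.71e-07), and with TMM factors it was called in KO alone (−1.21, adjusted p = 0.00508), while the WT value was −0.66 (adjusted p = 0.122). Within plate B alone, where all WT oocytes were in the branch, Plk1 in WT was at −0.61 and was not called (adjusted p = 0.289).

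Mastl, Arpp19 and Ensa, the kinase and the phosphatase inhibitors of the Greatwall arm, were each lower at 2c. Mastl went from a median of 67.2 to 27.3 CPM in WT and from 110 to 36.9 CPM in KO, with log2 fold changes of −2.96 (SE 0.44, adjusted p = 1.79e-08) and −3.69 (SE 0.46, adjusted p = 6.02e-11). Arpp19 went from a median of 53.0 to 12.5 CPM in WT and from 44.4 to 32.5 CPM in KO, with log2 fold changes of −2.92 (SE 0.39, adjusted p = 4.72e-10) and −1.95 (SE 0.36, adjusted p = 2.96e-06). Arpp19 in KO was not called with TMM factors (−0.27, adjusted p = 0.506). Ensa lay between 9.43 and 91.7 CPM in WT oocytes (median 22.5) and between 5.63 and 53.8 CPM in WT 2c embryos (median 20.8). It had log2 fold changes of −2.19 in WT (SE 0.48, adjusted p = 6.13e-05) and −1.82 in KO (SE 0.47, adjusted p = 5.82e-04), and −0.58 and −0.08 with TMM factors, which were not called. Arpp19 and Ensa are close paralogs, and reads that fit both could make the counts of each uncertain, which was not tested.

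**Figure D2:**
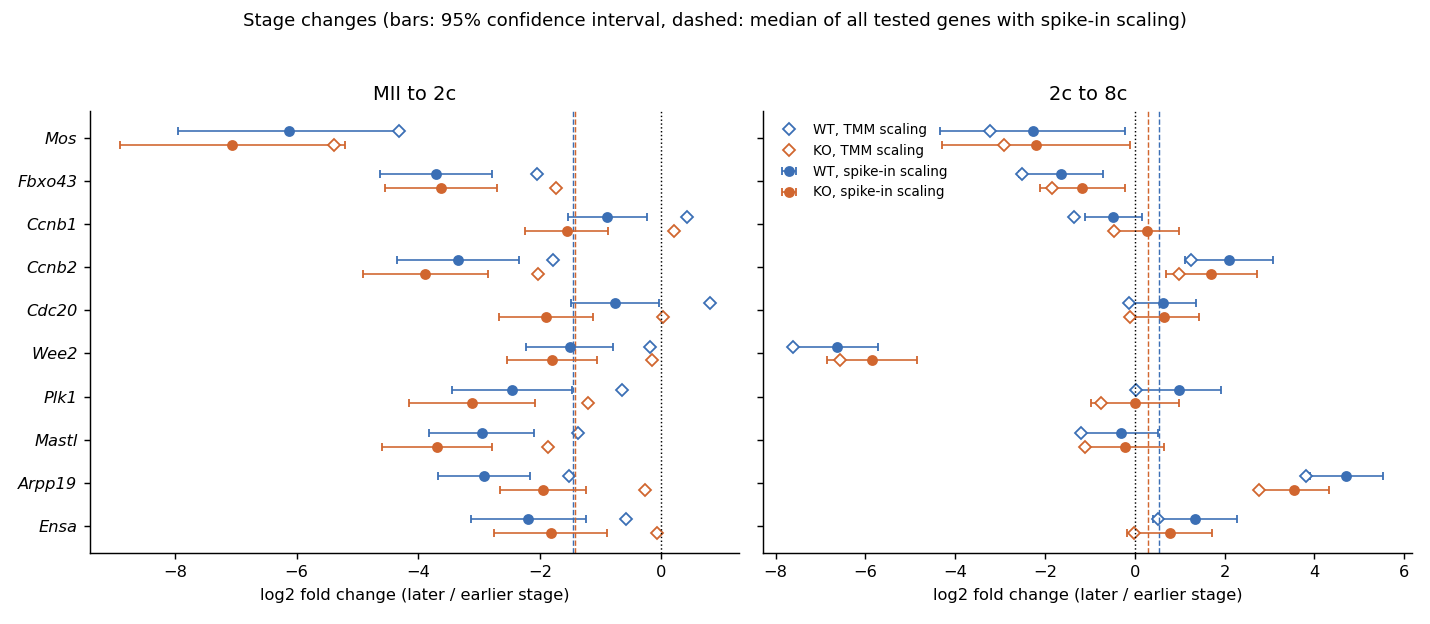
Log2 fold change of each regulator for the step MII to 2c (left) and the step 2c to 8c (right), WT and KO, with 95% confidence intervals, relative to spike-in RNA (filled) and with TMM factors (open). Dashed lines mark the median of all tested genes relative to spike-in RNA (−1.46 in WT and −1.42 in KO in the left panel). In the left panel the filled points of every regulator lie to the left of the line of their genotype, except Ccnb1 (−0.89) and Cdc20 (−0.76) in WT. Wee2 in WT (−1.51) and Ccnb1 in KO (−1.56) lie close to the line.

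From the 2c to the 8c embryo the regulators parted. Wee2 and Fbxo43 fell further and Wee2 was nearly lost, while Arpp19 and Ccnb2 rose, Arpp19 to well above its level in the oocyte. Mos, at a few counts per embryo at 2c, was at 0 in 12 of 15 WT and 7 of 11 KO embryos at 8c. In edgeR 3 of 10 regulators were higher at 8c in WT, where 31.9% of all tested genes were higher, and 2 were lower, where 16.2% were lower. In KO 2 were higher, against 29.1% of tested genes, and 2 were lower, against 19.5%. The median log2 fold change of the 10 was 0.15 in WT and 0.14 in KO, and over all tested genes 0.53 and 0.30. The balance turned with the scale, since with TMM factors 2 were higher and 5 lower in WT, and 1 was higher and 4 lower in KO, with medians of the 10 at −0.67 and −0.61. Of the 16511 tested genes, TMM factors gave 3475 higher and 4767 lower in WT, and 3501 higher and 5008 lower in KO.

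Wee2 fell from a median of 250 CPM in WT 2c embryos to at most 4.20 CPM in WT 8c embryos, of which 9 of 15 were at 0. In KO the highest 8c embryo had 9.75 CPM and the lowest 2c embryo 120 CPM, so neither genotype overlapped between the stages. The log2 fold change was −6.64 in WT (SE 0.47, adjusted p = 8.17e-22) and −5.86 in KO (SE 0.51, adjusted p = 4.86e-17). Fbxo43 fell as well, by −1.64 in WT (SE 0.47, adjusted p = 0.00266) and −1.17 in KO (SE 0.49, adjusted p = 0.0395), to 4.29 ± 3.84 CPM (SD, n = 15) in WT and 10.0 ± 8.71 CPM (SD, n = 11) in KO 8c embryos. The KO call of Fbxo43 was lost in 4 of 9 alternatives, with all 90 libraries (−0.96, adjusted p = 0.112), with the 2 groups alone (−1.16, adjusted p = 0.0790), in plate A (−1.08, adjusted p = 0.263) and in plate B (−1.20, adjusted p = 0.142). The WT call was lost in plate B (−1.32, adjusted p = 0.0640).

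Arpp19 rose from between 4.56 and 77.8 CPM in WT 2c embryos to between 186 and 457 CPM in WT 8c embryos, without overlap. In KO it rose from at most 97.9 CPM to at least 176 CPM, also without overlap. Arpp19 had log2 fold changes of 4.71 in WT (SE 0.42, adjusted p = 6.63e-17) and 3.54 in KO (SE 0.39, adjusted p = 1.45e-12), and the 8c means of 295 ± 74.9 CPM (SD, n = 15) and 296 ± 78.8 CPM (SD, n = 11) lay close together. Ccnb2 rose by 2.09 in WT (SE 0.50, adjusted p = 2.91e-04) and 1.70 in KO (SE 0.52, adjusted p = 0.00435), but the KO value was not called with TMM factors (0.97, adjusted p = 0.0588). Within plate A neither value of Ccnb2 was called (1.88 in WT, adjusted p = 0.0983, and 1.82 in KO, adjusted p = 0.101). Ensa rose in WT by 1.35 (SE 0.48, adjusted p = 0.0152), which was not called with TMM factors (0.51, adjusted p = 0.286) or in either plate (1.90, adjusted p = 0.104, and 1.03, adjusted p = 0.143), and had 0.77 in KO (adjusted p = 0.182). Mos had values of −2.28 in WT (adjusted p = 0.0635) and −2.20 in KO (adjusted p = 0.0793) from a total of 20 counts in the WT 2c embryos and 5 counts in the WT 8c embryos. This step of Mos was called lower in 5 of 9 alternatives in WT and 3 of 9 in KO. With plate as a term it was called in both genotypes (−2.52 in WT, adjusted p = 0.0396, and −2.49 in KO, adjusted p = 0.0458).

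Set in order by mean CPM over the 6 groups, each regulator followed its own course. Mos, Fbxo43 and Mastl ran from oocytes down through 2c to 8c embryos in both genotypes. For Mastl the step from 2c to 8c was not called relative to spike-in RNA (−0.32 in WT, adjusted p = 0.555, and −0.23 in KO, adjusted p = 0.703), and it was with TMM factors (−1.20 and −1.10). The same holds for Mos, at −3.22 in WT and −2.91 in KO with TMM factors. Arpp19 had its lowest means at 2c and its highest at 8c. Wee2 had means of 345 and 339 CPM in WT and KO oocytes and 303 CPM in both 2c groups, which did not differ beyond their spread between the genotypes, and 1.24 and 2.95 CPM at 8c. Ensa had its highest mean at 37.7 CPM in KO oocytes and its lowest at 22.2 CPM in WT 2c embryos. Between 2c and 8c, relative to spike-in RNA, Ensa was not called in KO, and Plk1, Ccnb1 and Cdc20 were called in neither genotype. With TMM factors Ccnb1 was called lower in WT (−1.35, adjusted p = 1.01e-04).

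The sequence before the start of each gene was read for a CCAAT box, a common element of cell cycle promoters, and for a form of the consensus of PLAG1, the factor that was deleted. The RefSeq promoter table (GRCm38.p6) held 8 of the 10 regulators, and Mos and Fbxo43 were not in it. In the 250 bases before the start, the CCAAT box (CCAAT on either strand, ATTGG in the printed strand where it lies on the other) was present in 7 of 8, against 33.8% of 32851 windows of this length. Ccnb2 and Ensa had 3 boxes each, which 2.79% of all windows reach with at least 3. Arpp19 had none and Wee2 had 1. The form of the PLAG1 consensus used here (GAGGC or GGGGC, then 6 to 8 bases of any kind, then GGG, on either strand) leaves no choice of letters in its last part, where other forms do. It was present before 2 of the 8, Ccnb1 and Mastl, against 19.9% of all windows. A match gives the letters and not a bound site, and the letters could not be set against binding data here.

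The windows of Ccnb2 and Ensa, those with the most boxes, are printed with their CCAAT boxes in capitals. That of Mastl is printed with its match to this form of the PLAG1 consensus in capitals. Mastl was picked for its steady difference between the genotypes in oocytes. The other match, 177 bases before the start of Ccnb1, is not printed, and Ccnb1 had a log2 fold change of −0.37 in KO against WT oocytes, which was not called. Whether a match goes with a difference between the genotypes was not tested. In Mastl the match lies 52 bases before the start on the other strand and does not overlap its CCAAT box 107 bases before the start. The boxes of Ccnb2 begin 87, 54 and 21 bases before the start, all in the printed strand, and those of Ensa 163, 76 and 34 bases before it, all on the other strand. Ccnb2 lies at chr9:70421555-70421804 on the minus strand, Ensa at chr3:95624730-95624979 on the plus strand and Mastl at chr2:23156025-23156274 on the minus strand.
Ccnb2: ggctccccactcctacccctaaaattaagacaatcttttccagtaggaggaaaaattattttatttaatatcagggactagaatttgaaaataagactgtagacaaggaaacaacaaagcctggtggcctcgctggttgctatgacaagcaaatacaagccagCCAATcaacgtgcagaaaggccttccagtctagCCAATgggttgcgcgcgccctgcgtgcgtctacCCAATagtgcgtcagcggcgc
Ensa: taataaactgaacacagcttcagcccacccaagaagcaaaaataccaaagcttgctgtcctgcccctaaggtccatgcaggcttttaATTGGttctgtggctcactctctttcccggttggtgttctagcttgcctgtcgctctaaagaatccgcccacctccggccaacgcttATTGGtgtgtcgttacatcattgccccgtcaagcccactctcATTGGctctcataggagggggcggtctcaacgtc
Mastl: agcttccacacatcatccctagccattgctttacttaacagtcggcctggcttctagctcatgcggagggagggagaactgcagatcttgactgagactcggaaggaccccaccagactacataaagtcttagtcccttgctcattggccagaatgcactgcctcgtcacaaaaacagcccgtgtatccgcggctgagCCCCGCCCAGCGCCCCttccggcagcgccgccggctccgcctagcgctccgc

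Between KO and WT oocytes, 6 of 10 regulators had a value above 0, with Mos, Plk1 and Mastl the farthest from it, and none passed the threshold. Mos and Plk1 had lower means in the libraries that stood apart, in both genotypes. For Mastl the genotype difference in mean log2(CPM + 1) was 0.79 without these libraries and 0.72 with all. In the branch, Mastl had a mean of 85.9 CPM in KO against 132 CPM in the other 12, and 83.0 against 77.8 CPM in WT. Per 10000 spike-in counts its medians were lower in the branch in both genotypes (20.2 against 57.0 in WT, 38.8 against 87.3 in KO). In edgeR 0 of 10 regulators were called at MII, where 0.781% of all tested genes were called, and DESeq2 called 0 as well, where it called 0.497%. Mos, Plk1 and Mastl had an unadjusted p under 0.05, as did 10.2% of all tested genes. The median log2 fold change was 0.17 over the 10 and 0 over all tested genes. With spike-in totals all 10 were above 0 and none was called, with a median of 0.53 against 0.30 over all tested genes.

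Mean Mos was 196 ± 261 CPM (SD, n = 16) among WT and 586 ± 485 CPM (SD, n = 14) among KO oocytes, and 12 of 14 KO oocytes were above the WT median. The log2 fold change was 1.56 (SE 0.52, 95% interval 0.53 to 2.59, adjusted p = 0.165). In plate A, WT oocytes lay between 0 and 803 CPM and KO oocytes between 438 and 1134 CPM. In plate B, WT oocytes lay between 0 and 36.6 CPM and KO oocytes between 4.25 and 1709 CPM (median 103), with both KO libraries of the branch at the low end. Mean log2(CPM + 1) of Mos was higher in KO by 3.01 (permutation test, p = 0.0144), by 1.98 in plate A (exact permutation test, p = 0.0301) and by 4.03 in plate B (exact permutation test, p = 0.0107). In plate A the WT oocyte of the branch was at 0, and the mean log2(CPM + 1) of the other 7 was 8.57, against 9.48 in KO oocytes of plate A, so this oocyte carries much of the 1.98. Without the 11 libraries, Mos was at 435 ± 229 CPM (SD, n = 7) in WT and 682 ± 455 CPM (SD, n = 12) in KO, the difference was 0.43 (exact permutation test, p = 0.447), and the log2 fold change in edgeR was 0.68 (SE 0.45, adjusted p = 0.688). With plate as a term edgeR called Mos higher in KO (2.28, SE 0.54, adjusted p = 0.0149), and within plate B alone as well (5.01, SE 0.71, adjusted p = 4.18e-07).

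Mastl had a median of 67.2 CPM in WT oocytes, from 34.8 to 248 CPM, and of 110 CPM in KO oocytes, from 74.4 to 205 CPM. All 14 KO oocytes were above the WT median, and the ranges overlapped. The log2 fold change was 0.63 (SE 0.28, adjusted p = 0.388) and was not called. Mean log2(CPM + 1) was higher in KO by 0.72 (permutation test, p = 0.00116), by 0.84 in plate A (exact permutation test, p = 0.0042) and by 0.61 in plate B (exact permutation test, p = 0.0768). Without the 11 libraries the difference was 0.79 (exact permutation test, p = 0.000853), and 6 of 12 KO oocytes were above the highest of 7 WT oocytes. These p-values come from 30 pairings of a regulator with a stage and are not adjusted over them.

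Plk1 lay between 7.56 and 807 CPM in WT oocytes (median 365) and between 178 and 2435 CPM in KO oocytes (median 571), with 1 KO library far above the rest. Its log2 fold change was 0.67 (SE 0.33, adjusted p = 0.465). The 9 WT oocytes of the branch lay between 7.56 and 578 CPM and the other 7 between 466 and 807 CPM. The difference in mean log2(CPM + 1) was 0.95 with all libraries (permutation test, p = 0.0545) and −0.09 without the 11 (exact permutation test, p = 0.811). The other 7 regulators had log2 fold changes between −0.37 (Ccnb1) and 0.26 (Ccnb2).

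Oocytes in the same well of plates A and B held opposite genotypes in 14 wells and deviated together, so the well was also used as a replicate block with plate as a term. In this blocked fit 3 regulators were called higher in KO, Mos by 2.56 (adjusted p = 3.89e-47), Plk1 by 0.61 (adjusted p = 2.95e-05) and Mastl by 0.68 (adjusted p = 0.00274), and 809 genes were called in place of 129. edgeR found no spread of its own for single genes in the blocked fit (its prior degrees of freedom were infinite), so the SE of 0.17 for Mos is that of a typical gene of its level and not the one that Mos showed. The same 3 were called with the block in limma-voom, with 3.22 for Mos (adjusted p = 0.0130), and in DESeq2, with 2.78 (SE 0.61, adjusted p = 3.38e-04), both added after the data were seen. Pair by pair, Mos was higher in KO in 9 of 14 wells, which were 7 of 7 wells with the KO library in plate A and 2 of 7 with it in plate B, and Plk1 in 7 of 7 and 1 of 7. Mastl was higher in KO in 6 of 7 wells of either kind, with a median log2 difference of 0.71 in both. Without the 11 libraries 5 of the wells keep both oocytes, all with the KO library in plate B, where plate and genotype cannot be told apart.

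**Figure D3:**
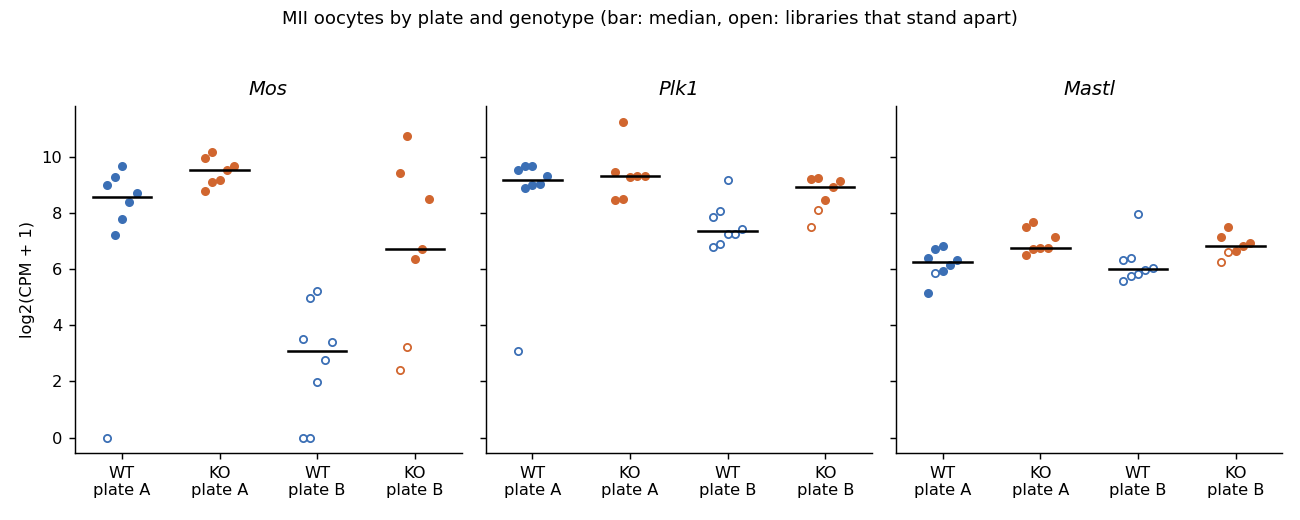
Mos, Plk1 and Mastl in single oocytes as log2(CPM + 1), by plate and genotype, with the median as a bar and the 11 libraries that stood apart as open circles. Mos and Plk1 are low in the open circles, which hold all 8 WT oocytes of plate B (0 to 36.6 CPM for Mos), while the median of Mastl lies higher in KO in both plates. The 2 open circles of KO, at 74.4 and 97.3 CPM for Mastl, lie below the KO median of plate B (111 CPM).

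Between KO and WT embryos at 2c, Arpp19 and Ensa lay higher and Cdc20 and Ccnb1 lower in KO, and none passed the threshold. In edgeR 0 of 10 regulators were called, where 4.92% of all tested genes were called. Arpp19 and Cdc20 had an unadjusted p under 0.05, as did 20.5% of all tested genes. DESeq2 called 1 of the 10, Arpp19, where it called 6.87% of all tested genes. The median log2 fold change was 0.14 over the 10 and 0.12 over all tested genes.

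Arpp19 lay between 4.56 and 77.8 CPM in WT 2c embryos (median 12.5) and between 6.69 and 97.9 CPM in KO 2c embryos (median 32.5). The ranges overlapped almost fully, but 10 of 11 KO embryos were above the WT median. The counts behind this were few, 40 over the 11 WT and 103 over the 11 KO libraries. The log2 fold change was 1.06 (SE 0.38, 95% interval 0.32 to 1.80, adjusted p = 0.0797), and over 10 alternative settings it ran from 0.93 to 1.29 with adjusted p from 0.0128 to 0.659, past the threshold in 3 of them. Mean log2(CPM + 1) was higher by 1.20 (permutation test, p = 0.0197), by 0.92 in plate A (exact permutation test, p = 0.183) and by 1.54 in plate B (exact permutation test, p = 0.0291). Ensa, its paralog, had a log2 fold change of 0.65 (SE 0.44, adjusted p = 0.389), and its mean log2(CPM + 1) was higher by 0.75 (permutation test, p = 0.0375).

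Cdc20 had a log2 fold change of −0.78 (SE 0.30, adjusted p = 0.109), and its mean log2(CPM + 1) was lower by −0.69 (permutation test, p = 0.0714), by −0.24 in plate A (exact permutation test, p = 0.73) and by −1.01 in plate B (exact permutation test, p = 0.0728). A single WT embryo, at 1112 CPM, held 248 of the 616 Cdc20 counts of its group, and the difference without it was not tested. Ccnb1 had −0.59 (SE 0.33, adjusted p = 0.297). Mos was at 0 in 5 of 11 embryos of both genotypes, and its log2 fold change of 0.49 (SE 0.91, 95% interval −1.29 to 2.28) leaves a wide range at this depth. Wee2 had 0.01 (SE 0.34, 95% interval −0.65 to 0.66) and Ccnb2 0.01 (SE 0.51, 95% interval −0.99 to 1.01).

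At 8c, Fbxo43 lay higher and Cdc20 lower in KO, and neither passed the threshold. In edgeR 0 of 10 regulators were called, where 1.74% of all tested genes were called, and DESeq2 called 0, where it called 2.11%. Fbxo43 and Cdc20 had an unadjusted p under 0.05, as did 14.3% of all tested genes. Cdc20 was at 263 ± 135 CPM (SD, n = 15) in WT and 158 ± 69.5 CPM (SD, n = 11) in KO embryos, and 2 of 11 KO embryos were above the WT median. Its log2 fold change was −0.74 (SE 0.28, adjusted p = 0.167), and its mean log2(CPM + 1) was lower by −0.71 (permutation test, p = 0.00761), by −0.72 in plate A (exact permutation test, p = 0.111) and by −0.68 in plate B (exact permutation test, p = 0.0381). Fbxo43 lay between 0 and 12.4 CPM in WT (median 3.95) and between 0 and 26.8 CPM in KO (median 6.40), with 26 counts in all in WT and 35 in KO. For Fbxo43 the log2 fold change was 1.15 (SE 0.43, adjusted p = 0.155), and the permutation test of its mean gave p = 0.0521. Arpp19, by then abundant, had 0.01 (SE 0.28).

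**Figure D4:**
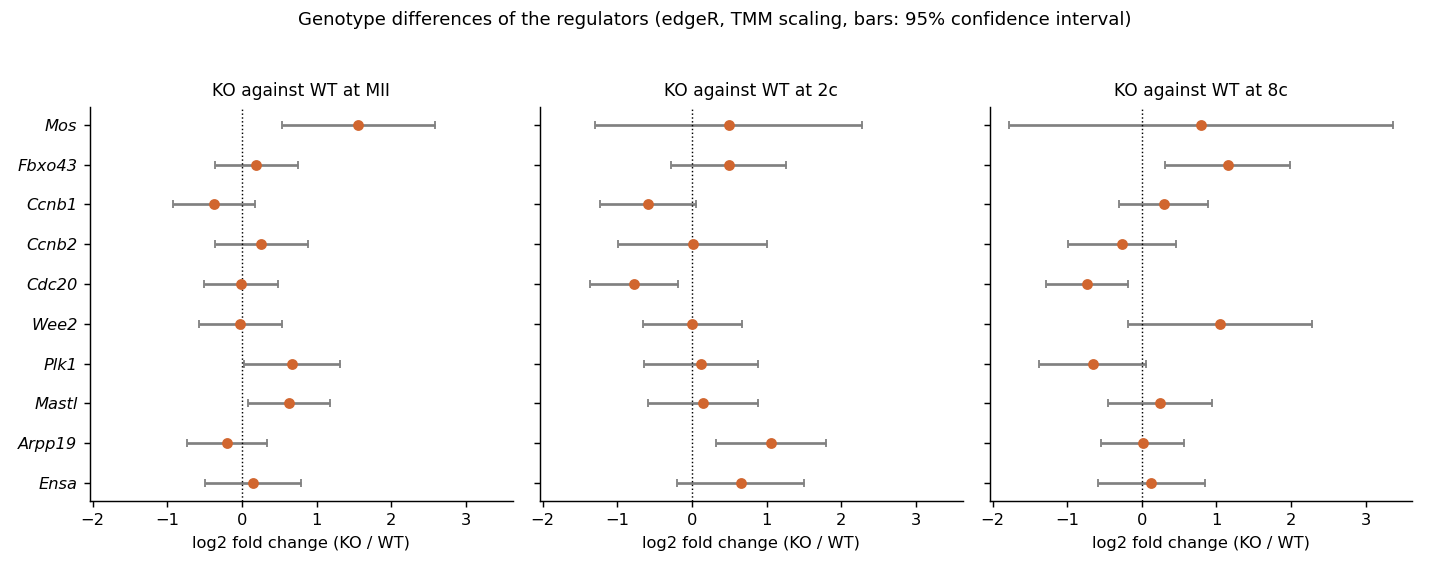
Log2 fold change of KO against WT for each regulator at MII, 2c and 8c in edgeR with TMM factors, with 95% confidence intervals. The intervals of Mos (0.53 to 2.59), Plk1 and Mastl at MII, Arpp19 (0.32 to 1.80) and Cdc20 at 2c, and Fbxo43 and Cdc20 at 8c leave out 0, and none of the 30 values passed after adjustment over all tested genes.

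Whether the genotype difference changed between stages was tested as an interaction. The difference at 2c did not part from that at MII for any of the 10 regulators in edgeR, where 3.31% of all tested genes were called, and 1 regulator, Arpp19, had an unadjusted p under 0.05. Arpp19 had an interaction of 1.26 (SE 0.46, adjusted p = 0.115), and DESeq2 called it, as its only regulator, where it called 4.42% of all tested genes. For the difference at 2c against that at 8c, 0 of 10 regulators were called in edgeR, where 2.30% of all tested genes were called. Arpp19 alone again had an unadjusted p under 0.05 (1.05, SE 0.47, adjusted p = 0.211). DESeq2 called 0, where it called 3.96% of all tested genes. Mos had −1.07 (SE 1.09) for 2c against MII.

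Mos lies 29053 bp from Plag1 on chromosome 4, and its neighbours were read to see whether genes near the deleted locus moved together. In mm9, Mos spans chr4:3797805-3799252 and Plag1 chr4:3828305-3865552, both on the minus strand. Of 16 annotated genes within 1 Mb of Plag1, 7 were tested, which were Mos, Chchd7, Rps20, Lyn, Tgs1, Tmem68 and Impad1. None of the 7 was called between the genotypes at any stage in edgeR. Mos and Lyn at MII, and Lyn, Rps20 and Tgs1 at 2c, had an unadjusted p under 0.05, as did 10.2% of all tested genes at MII and 20.5% at 2c. Chchd7, whose span starts 483 bp from that of Plag1, had 0.43 at MII (SE 0.56) and 0.72 at 2c (SE 1.03). Lyn, a Src family kinase 109546 bp away, had −1.17 at MII (SE 0.50, adjusted p = 0.363) and 2.26 at 2c (SE 0.77, adjusted p = 0.0674). Its interaction of 3.43 (SE 0.92, adjusted p = 0.0218) was called, though not with spike-in totals (adjusted p = 0.0744), while the interaction of Mos was −1.07 and was not. Impad1 had 0 counts in every oocyte, and its level in oocytes was not detectable at this depth.

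**Figure D5:**
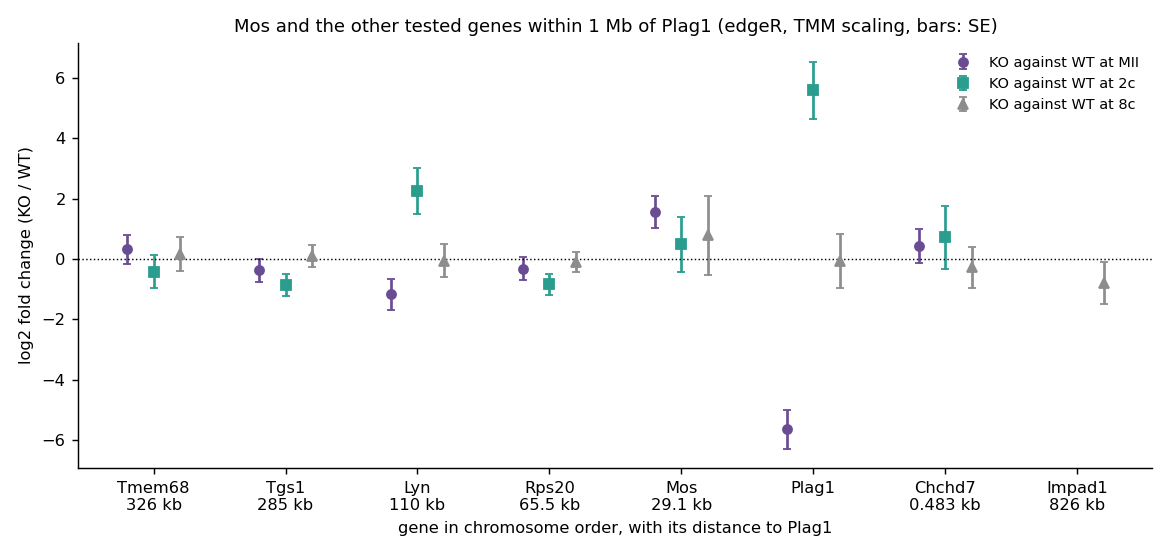
Log2 fold change of KO against WT (with SE) for Plag1 and the 7 tested genes within 1 Mb, in their order on the chromosome with the distance to Plag1 under each name, at the 3 stages. Plag1 is at −5.64 at MII and 5.59 at 2c, a size that rests on 1 count in WT 2c embryos, Mos at 1.56 at MII, and Impad1 is drawn at 8c alone, since it had 0 counts in oocytes and in KO 2c embryos.

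The other genes of the pathway were taken from 4 lists of 38 genes, all in the table and all tested. Between the genotypes, edgeR called 1 of the 38 at MII, where 0.781% of all tested genes were called, 1 at 2c, where 4.92% were, and 0 at 8c, where 1.74% were. Camk2b, a subunit of the calcium-dependent kinase CaMKII, was higher in KO oocytes, and Cdc25a, a phosphatase that activates Cdk1, was lower in KO 2c embryos. Of the 4 lists, the Mos-MAPK arm (7 genes) and the phosphatases (11) had no gene called at any stage, the switches of cyclin B-Cdk1 (9) had 1 lower at 2c, and the APC/C and calcium arm (11) had 1 higher at MII. In the interaction of 2c against MII, Cdk1 was called at −2.34 (SE 0.69, adjusted p = 0.0387), but not with spike-in totals (adjusted p = 0.0524). Camk2d, another CaMKII subunit, was called higher there, but not with spike-in totals, and it had 0 counts in all 11 WT 2c embryos, so no size is given. None of the 38 was called for 2c against 8c.

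Camk2b lay between 0 and 41.0 CPM in WT oocytes (median 4.55) and between 0 and 141 CPM in KO oocytes (median 51.2), with a log2 fold change of 2.68 (SE 0.49, adjusted p = 3.08e-04). It was higher in KO in 13 of 14 wells that pair the genotypes. Unlike Mos, it kept its difference without the 11 libraries (4.03), but within plate B alone it was not called (1.79, adjusted p = 0.112). Cdc25a was at 24.6 ± 14.4 CPM (SD, n = 11) in WT and 6.03 ± 9.12 CPM (SD, n = 11) in KO 2c embryos, of which 6 of 11 were at 0. For Cdc25a the log2 fold change was −1.88 (SE 0.54, adjusted p = 0.0277), and it was not called with all 90 libraries (−1.27, adjusted p = 0.121), with spike-in totals (−1.71, adjusted p = 0.109), with the 2 groups alone (−1.80, adjusted p = 0.0728) or in either plate alone.

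From MII to 2c in WT, 21 of the 38 were lower relative to spike-in RNA, where 51.3% of all tested genes were lower, and 4 were higher, where 14.1% were. With TMM factors 10 were lower and 10 higher, and of all 16511 tested genes 3814 and 4540. The Mos-MAPK arm had 5 of 7 lower, with Rps6ka3, a kinase downstream of MAP kinase, at −3.29 (SE 0.65, adjusted p = 8.70e-06), and 0 higher. The APC/C and calcium arm had 7 of 11 lower, with the calcineurin subunit Ppp3ca at −5.02 (SE 0.74, adjusted p = 1.05e-08), and 0 higher. Among the switches 6 of 9 were lower, with the phosphatase Cdc25b at −3.34 (SE 0.54, adjusted p = 1.47e-07), and 2 were higher, with Cdk1 itself at 2.63 (SE 0.54, adjusted p = 1.72e-05). The phosphatases had 3 of 11 lower, with the PP2A scaffold Ppp2r1a at −4.19 (SE 0.52, adjusted p = 4.65e-11), and 2 higher. Ppp2cb, a catalytic subunit of PP2A, had 0 counts in 16 WT oocytes and 60 counts in 10 of 11 WT 2c embryos, which is at least 30.9-fold higher with a floor of 3 counts over the group. In KO oocytes it was at 0 as well, and at 2c at least 20.1-fold higher.

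In KO, from MII to 2c, 20 of the 38 were lower, against 50.3% of all tested genes, and 2 higher, against 13.5%, but with TMM factors 8 were lower and 10 higher (3192 and 4799 of all). Cdk1 went from a median of 9.47 CPM in WT oocytes to 538 CPM in WT 2c embryos, and from 23.6 to 226 CPM in KO. Its log2 fold change relative to spike-in RNA was 0.04 in KO (SE 0.55, adjusted p = 0.978), and with TMM factors 1.85 (adjusted p = 0.00104). A single KO oocyte, at 585 CPM, held 413 of the 699 Cdk1 counts of its group, and the values without it were not tested. From 2c to 8c in WT 12 of the 38 were higher, against 31.9% of all tested genes, and 5 lower, against 16.2%, but with TMM factors 8 were higher and 10 lower (3475 and 4767 of all). In KO 9 were higher, against 29.1%, and 3 lower, against 19.5%, but with TMM factors 4 were higher and 12 lower (3501 and 5008 of all).

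The genes whose levels most resembled those of Mos were sought over the 78 libraries among 8602 genes with a mean of at least 20 CPM in some group. By Pearson's r of log2(CPM + 1) they were Gm6981 (r = 0.875, Spearman's rho = 0.783), Rdx (0.872, 0.733), Ccno (0.821, 0.802), Slc25a35 (0.815, 0.701) and Lamb1 (0.815, 0.795). The libraries share stage, plate and the branch of oocytes that stood apart, so these values describe a common course over the groups. None of the 5 was called between KO and WT oocytes.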

How the data were processed

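The table the authors deposited holds unscaled counts of 24422 genes and of 92 spike-ins, 1 column for each of 90 libraries. Per the labels and methods, reads were joined by molecular identifier, mapped to mm9 with TopHat and counted per annotated gene with HOMER (version not given). Columns were matched to genotype, stage, plate and well from the labels. Libraries with a median under 1 CPM (12) were left out. CPM were computed on TMM library sizes. All 6 groups were fitted together in edgeR 4.0.16 (quasi-likelihood test, R 4.3.3), with TMM factors for genotypes and interactions and with spike-in totals as library size for stages. Genes were called at an adjusted p (Benjamini-Hochberg over 16511 genes) under 0.05. Other tools were DESeq2 1.42.0 and limma 3.58.1. Single values were compared as mean log2(CPM + 1) by two-sided permutation tests (100000 resamples, exact with fewer than 10 libraries in a group). The fits and tests were tested on simulated data, where 161 of 200 changed genes were recovered and 10 unchanged genes were called. The simulation gave every gene the same spread and held no plates, wells or branch of oocytes standing apart. It therefore does not show how the fits behave with these.

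Wells were checked as pairs in oocytes over 8418 genes, the labels giving the plate and the well and nothing that wells share. Deviations from group means correlated at over 0.1 in 12 of 14 wells (lowest r −0.0562). Deviations from group and plate means, which match the blocked fit with its plate term, did so in 14 of 14 (lowest r 0.148), and on that basis, chosen before the blocked fit was run, the wells were taken as pairs. The 2c wells did not meet this (lowest r 0.0248), and the 8c wells paired libraries of the same genotype. Within each group, no kept library was a copy of another, and libraries of different groups were not compared for this.

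The members and lists were chosen with earlier results of these data known. Named genes are the 10 regulators, Plag1, tested genes within 1 Mb of it, list genes called between genotypes or with the largest change in WT from MII to 2c in a list, and the 5 genes most like Mos. Camk2d was named after its value was seen. Alternatives varied the libraries kept, the filter, the scaling, plate, the groups fitted, the tool and the block.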

Additional observations from a re-analysis of the deposited data

Results flagged for a closer look

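These results were singled out because the genotype difference itself differed between stages in the interaction test of edgeR, and no explanation was tested for any of them. Plag1 went from lower in KO oocytes to higher in KO 2c embryos, with an interaction of 11.24 (SE 1.10, adjusted p = 6.00e-13) for 2c against MII, and of 5.66 (SE 1.38, adjusted p = 0.0151) for 2c against 8c. The size of the first rests on 1 Plag1 count in all WT 2c embryos and 4 in all KO oocytes, so it is uncertain, and the difference at 2c was not called within plate A (4.21, adjusted p = 0.479). KO embryos carry a WT paternal allele, and KO oocytes do not. Lyn, within 1 Mb of Plag1, had an interaction of 3.43 (SE 0.92, adjusted p = 0.0218) for 2c against MII, not called with spike-in totals (adjusted p = 0.0744). Cdk1, the partner of the cyclins B, had an interaction of −2.34 (SE 0.69, adjusted p = 0.0387) for 2c against MII, which was not called with spike-in totals (adjusted p = 0.0524). A single KO oocyte held 413 of the 699 Cdk1 counts of its group (585 CPM, median 23.6), and the value without it was not tested.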

How the results depend on the processing

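Over 7 comparisons of genotypes or stages, 627 of 720 values of single regulators under an alternative kept their direction and their side of the threshold, 23 no longer passed it and 29 newly passed it. Another 37 changed sign without being called under either setting, 7 of them in each plate alone, 4 with spike-in totals and 4 with TMM factors. The last 4 changed sign with a call under a setting. They did so with TMM factors in place of spike-in totals from MII to 2c, which were Ccnb1 (0.43 in WT, 0.21 in KO) and Cdc20 (0.80 in WT, 0.026 in KO), since TMM removes the shift of the median gene. With TMM factors 5 regulators were called in KO from MII to 2c in place of 10.

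The number of regulators called between KO and WT oocytes was 0, and it was 1 (Mos) with plate as a term, 1 (Mos) in plate B alone, and 3 (Mos, Plk1, Mastl) with the well as a replicate block in edgeR, in limma-voom and in DESeq2. The block changed no other call of a regulator. At 2c it was 1 (Arpp19) with all 90 libraries, with DESeq2 size factors in edgeR and in the DESeq2 Wald test. These 3 settings called 4.63%, 6.02% and 6.87% of all tested genes. The interaction of 2c against MII had 1 call (Arpp19) with DESeq2 size factors and in DESeq2, and 1 (Mos, lower) in plate B alone. Of all tested genes, 3.70%, 4.42% and 3.10% were called there. From 2c to 8c, KO had 2 calls (Wee2, Arpp19) in plate A alone and WT had 3 (Ccnb2, Wee2, Arpp19) in plate B alone, with fewer libraries in each. Apart from the fewer libraries, the cause of these changes was not tested.

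Over all genes, the 129 called at MII were 80 with the stricter filter, 476 in plate B, 45 with only the 2 groups fitted, 82 in DESeq2, and 809, 763 and 728 with the block in edgeR, limma-voom and DESeq2. The 812 at 2c were 285 with spike-in totals, 0 in plate A and 498 in plate B, and the 287 at 8c were 106, 6 and 57. The 546 of the interaction of 2c against MII were 312 with spike-in totals and 43 in plate A, and the 380 of 2c against 8c were 92, 0, 171 in plate B and 654 in DESeq2. From MII to 2c in WT 10800 were called, and 6919 in plate B. From 2c to 8c in plate A, 3949 were called in place of 7950 in WT and 4231 in place of 8025 in KO.

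Scaling moved the split into higher and lower. At MII it was 51 and 78 with TMM and 97 and 40 with spike-in totals. At 2c it was 379 and 433 with TMM, 191 and 94 with spike-in totals, 721 and 273 with DESeq2 factors, and 733 and 401 in DESeq2. At 8c it was 200 and 87, 91 and 15 with spike-in totals, and 238 and 57 with DESeq2 factors. The interaction of 2c against MII had 268 and 278, 111 and 201 with spike-in totals, 434 and 177 with DESeq2 factors, and 464 and 266 in DESeq2. That of 2c against 8c had 193 and 187, 61 and 31, and 232 and 145. From MII to 2c, TMM gave 4540 and 3814 in WT and 4799 and 3192 in KO, against 2326 and 8474, and 2231 and 8306, with spike-in totals. From 2c to 8c, TMM gave 3475 and 4767 in WT and 3501 and 5008 in KO, against 5269 and 2681, and 4812 and 3213.

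Depth limits Mos at 2c (20 counts in all in WT) and 8c (5 counts), Wee2 at 8c (8 counts) and Arpp19 at 2c (40 counts).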
